A study of Mus musculus with 9 samples.

Results

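A group of 137 genes was chosen for a level that stayed within set limits through the first day of differentiation of mouse spermatogonial stem cells (SSCs) and dropped during the second. The choice was made by a rule on the 46078 genes of the count files. Each count was divided by the library total and scaled to a common total of 1e+06, which gives CPM (counts per that total), and the 3 libraries of a time were averaged. A gene was taken where its 24 h mean was at least 5 CPM, its 24 h/0 h ratio lay from 0.67 to 1.5 and its 48 h/24 h ratio was at most 0.6. H19 (48 h/24 h ratio 0.479) and Col17a1 (0.599) met the limits and were left out, as the rule excludes H19 and every gene named Hox, Col or Hist. Of 11936 genes with a 24 h mean of at least 5 CPM, 8990 stayed within the limits on the 24 h/0 h ratio, and these are called the steady genes below. The ratios of the 137 genes between times are thus a description of what the rule selected, and no test is given for them.

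The cells were EGFP-SSC, a mouse line of SSCs that carries enhanced green fluorescent protein (EGFP) and has the genotype WT. All 9 libraries came from this single line, with 3 biological replicates per time, so they do not sample different animals. The 0 h libraries came from normal culture on mouse embryonic fibroblasts arrested with mitomycin C, in StemPro-34 medium with GDNF, basic FGF and EGF. For 24 h and 48 h, SSCs were mixed in equal number with somatic cells from testes of busulfan-exposed mice of 3 to 7 days postpartum, a drug treatment that depletes germ cells. This co-culture ran in α-MEM with KSR, BMP-4/7, retinoic acid, activin A, testosterone, FSH and BPE, and EGFP-positive cells were then sorted for poly-A RNA sequencing. Surrounding cells and medium both differ between 0 h and 24 h, and their parts cannot be told apart.

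SSCs divide in the testis either to renew themselves or to enter differentiation, and the signal for the latter is retinoic acid from the surrounding somatic cells. Self-renewal depends on growth factor signals, above all GDNF, while differentiating spermatogonia activate Stra8 and Kit and go on to meiosis. The genes described here include ion channels, adhesion proteins, cytokine and Notch regulators, and chromatin factors.

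Library totals ran from 16825251 to 22201892 counts. The 10 germ cell markers held 2606 to 3513 CPM in sum at 0 h, 3407 to 3504 CPM at 24 h and 3362 to 3448 CPM at 48 h. Each of them was above 3 counts in all 24 h and 48 h libraries. In the edgeR test described below, 4 of the 10 were called lower at 48 h than at 24 h and 0 higher. Over all genes tested, 12.7% were called lower and 8.61% higher. Markers of other cells were also present. The 10 markers of fibroblasts and stroma summed to 727 to 870 CPM at 0 h, 2805 to 3341 CPM at 24 h and 3883 to 4274 CPM at 48 h. Flow sorting is stated in the labels for 24 h and 48 h, and whether the 0 h cells were separated from the fibroblasts they grew on is not stated. The 6 markers of peritubular myoid cells summed to 13.0 to 14.7, 154 to 209 and 273 to 325 CPM at these times. The 9 Sertoli markers stood at 19.8 to 23.8 CPM at 0 h, 78.6 to 129 CPM at 24 h and 117 to 130 CPM at 48 h. Of these, Fshr alone was at 3 counts or fewer in each 24 h and 48 h library. The 7 Leydig markers lay at 4.30 to 6.63, 30.2 to 45.7 and 30.2 to 38.1 CPM, and Lhcgr alone was at 3 counts or fewer. The endothelial sum was 41.0 to 44.8 CPM at 0 h, 14.6 to 19.7 CPM at 24 h and 12.7 to 12.9 CPM at 48 h. Kdr and Pecam1 fell from means of 23.3 and 14.9 CPM at 0 h to 4.89 and 2.74 CPM at 24 h. Cdh5, Tek and Emcn rose over that step. The macrophage sum was 15.2 to 18.1, 7.50 to 12.4 and 8.67 to 10.2 CPM. Cd68 made up most of it and fell from 14.8 to 5.96 CPM between 0 h and 24 h. Lyz2 and Ptprc also fell, while Adgre1, Csf1r and Cd14 rose, all with means of at most 1.67 CPM at these times. The part of these cells in the results below was not tested. In bulk RNA, fewer cells of a type and less RNA per cell cannot be told apart.

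The 48 h/24 h ratio of the 137 genes ran from 0.279 for Fam131c to 0.599 for Ikzf4, with a median of 0.546. It was at most 0.4 in 18 genes, at most 0.5 in 43, and between 0.55 and 0.6 in 66, so that the group is dense at the limit of the rule. The 24 h/0 h ratio had a median of 0.995, from 0.679 for Igfbp5 to 1.49 for Kifc3, with 70 genes under 1 and 67 over 1. Against 0 h, the level left at 48 h had a median ratio of 0.517, and 61 genes kept at most 0.5 of it. Most of the genes gave few reads. At 24 h their mean CPM had a median of 14.0, 54 genes lay under 10 CPM and 18 reached 50 CPM. When the 8990 steady genes were split into 4 groups of like size by their CPM at 24 h, 88 members were in the lowest group (3.91% of its genes) and 7 in the highest (0.311%).

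All 137 genes passed the filter on low counts and were tested with the quasi-likelihood test of edgeR. At 48 h against 24 h, 136 were called lower, where 12.7% of all 17499 genes tested were, and Tap2 was not. At 24 h against 0 h, 11 were called, all lower (25.5% of all genes tested were called in either direction), namely Matn4, Nos1, Ssh3, Gm19680, Ptpn6, Hap1, Itga9, Abca7, Nmb, Usp11 and Icam1. That number changed when single libraries were left out, and so did the share of all genes tested. It was 26 (29.3% of all genes) without replicate 1 of 0 h, 3 (16.3%) without replicate 2 and 14 (33.4%) without replicate 3. Without replicates 1, 2 and 3 of 24 h it was 4 (14.4%), 1 (14.4%) and 3 (15.6%). At 48 h against 0 h, 114 were called lower, beside 18.5% of all genes tested. Each of the 3 libraries at 48 h lay under each of the 3 at 24 h in 135 members, against 21.5% of all genes tested. The exceptions were Tap2 and Tarbp1. Each 48 h library lay under each 0 h library in 118 members (21.1% of all genes tested). Each 24 h library lay under each 0 h library in 17 (17.4%) and over it in 22 (28.1%). No member was called higher at 48 h by edgeR, against 24 h (8.61% of all genes tested) or against 0 h (13%). All 3 comparisons contain libraries that the rule used, so these counts follow from the choice.

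All 9 libraries had a part in the choice. The low level at 48 h therefore follows from the rule and is only described here by library. Relative to its own 24 h mean, the median member stood at 0.527, 0.569 and 0.501 in the 48 h libraries, and at 0.862, 1.05 and 1.09 in the 0 h libraries. Replicate 1 of 0 h was thus lowest of its group. At 48 h the median of all steady genes was 0.989, 1.01 and 0.971 on the same scale. The members' coefficient of variation between replicates had a median of 9.65% at 24 h and 10.5% at 48 h, and 16.7% at 0 h. The corresponding values of all steady genes were 7.02%, 7.04% and 15.5%.

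**Figure D1:**
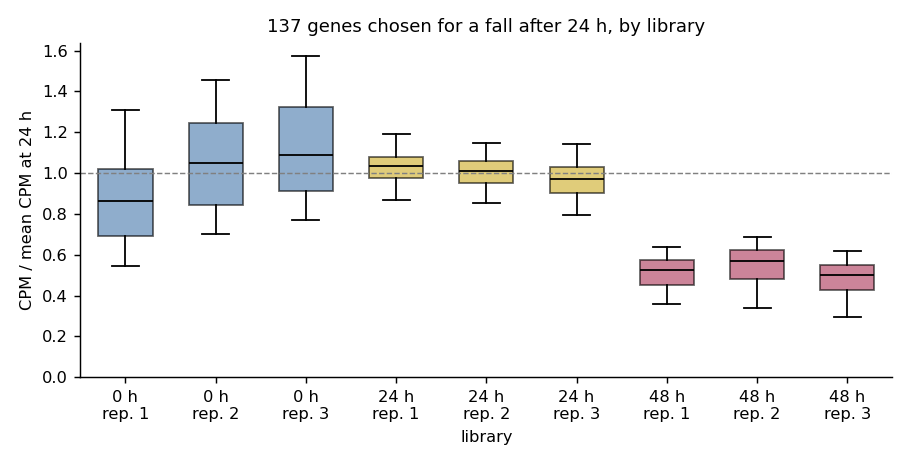
CPM of the 137 members divided by each gene's mean CPM at 24 h (vertical axis) in each of the 9 libraries (horizontal axis). Boxes span the quartiles with the median as a line, and whiskers reach the 5th and 95th percentiles. Medians were 0.501 to 0.569 at 48 h, a low level that follows from the rule, with a wider spread at 0 h than at 24 h.

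To read the same measure in libraries that had no part in the choice, the rule was applied to 2 libraries per time, and the ratio was then read in the third library of 24 h and 48 h. With replicate 1 left out, 134 genes were chosen, and all 134 had a ratio under 1 in the pair left out, with a median of 0.539. With replicate 2 left out, 184 of 192 chosen genes were under 1, with a median of 0.635. With replicate 3 left out, 157 of 158 were under 1, with a median of 0.556. Of the chosen genes, 103, 115 and 107 were among the 137 members, so these sets are not the group itself. The other steady genes, which leave out the chosen ones, had medians of 0.957, 1.01 and 0.987 in the same libraries. A ratio of at most 0.6 was met in the left-out libraries by 90 of 134, 75 of 192 and 98 of 158 chosen genes, whereas 2.62%, 1.78% and 3.31% of the other steady genes met it. The median was therefore under that of the other steady genes in each left-out pair, and nearest to 1 in replicate 2. The other limit of the rule was met less evenly. The 24 h/0 h ratio of the chosen genes in the left-out libraries had medians of 1.20, 0.907 and 0.802, and it stayed within the limits in 87 of 134, 159 of 192 and 103 of 158 genes.

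**Figure D2:**
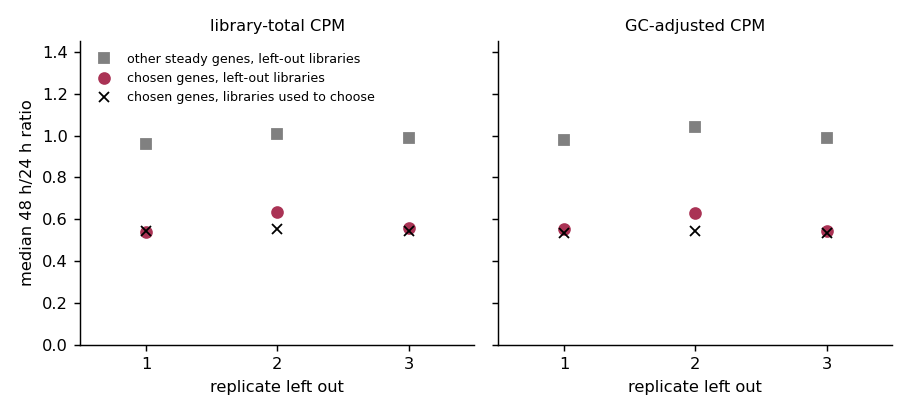
Median 48 h/24 h ratio (vertical axis) for genes chosen on 2 libraries per time, with the replicate left out on the horizontal axis. Circles show the chosen genes in the left-out libraries, crosses the same genes in the libraries that chose them, and squares the other steady genes. The circles lie at 0.539 to 0.635 on library-total CPM and at 0.545 to 0.628 on GC-adjusted CPM.

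The members stood apart from the other steady genes in the base composition of their transcripts. The longest transcript of a member had a median GC content of 55.5% (quartiles 52.2% and 59.1%), against 49.1% in the 8853 other steady genes. In the 119 genes of the opposite pattern, whose 48 h/24 h ratio was at least 1/0.6, it was 40.6%. When the steady genes were split into 10 groups of equal size by GC content, 50 members were in the group of highest GC and 0 of 897 genes were members in the lowest. The libraries themselves differed along GC content. The median log2 ratio of 48 h to 24 h of all steady genes fell from 0.23 in the group of lowest GC to -0.16 in the highest. Against the mean of all 9 libraries, the difference between the groups of highest and lowest GC was -0.64, 0.14 and 0.93 on the log2 scale in the 0 h libraries, 0.34, 0.10 and 0.08 at 24 h, and -0.27, 0.06 and -0.43 at 48 h. CPM were therefore also adjusted for trends along GC content and length in each library. On this scale all 137 members had a 48 h/24 h ratio of at most 0.690, with a median of 0.592 in place of 0.546, 75 were at most 0.6 and 65 met the whole rule. The adjusted rule chose 88 genes in all. The left-out libraries gave adjusted medians of 0.553, 0.628 and 0.545, for 86, 116 and 94 genes chosen on that scale. Against the unadjusted 0.539, 0.635 and 0.556, the first was nearer to 1 and the others were further from it. The adjusted ratio is given below beside that of each gene described in full.

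**Figure D3:**
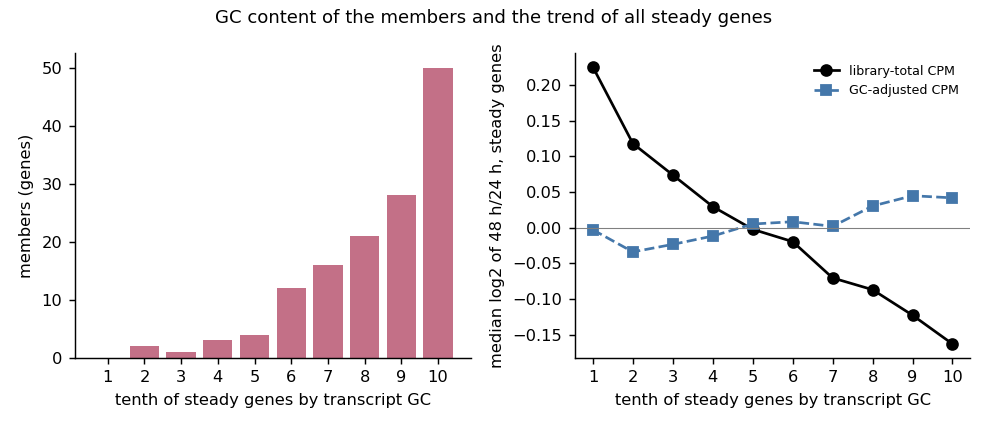
Number of members (left) and median log2 ratio of 48 h to 24 h CPM over all steady genes (right), both by 10 groups of equal size in transcript GC content, from lowest to highest. Members rise from 0 to 50 along the groups, while the unadjusted median falls from 0.23 to -0.16 and the adjusted one stays between -0.03 and 0.04.

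Some members share sequence with other genes, so that reads could have been split between copies. Windows of 75 bases at 97% identity or more were shared with another gene over more than 10% of the transcript in 29 members, and in 80 none were shared. Dmrtc1c1 and Dmrtc1c2 shared all windows with each other, Hspa1b shared 74.5% of its windows, chiefly with Hspa1a, and Tsen34 shared 62.3% with the transcript 4930526A20Rik. Gm5537 and Gm7901 are processed pseudogenes whose windows were all found in other genes, Pgk1 and Phgdh. In 23 members, more than 10% of the exonic sequence overlapped another gene. For these genes the counts may include reads of the partner.

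131 members code for proteins, 6 are pseudogenes and none is a long non-coding RNA. On chromosome 7 lay 18 of them (13.1%, against 7.16% of the other steady genes) and on chromosome X 7 (5.11% against 4.18%). Median transcript length was close to that of the other steady genes, at 3390 and 3349 bases.

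Start-site sequences were examined for the 96 members found by symbol in the RefSeq promoter table of build GRCm38.p6. The 250 bases before the start had a median GC content of 58.8% in members and 60.4% in the other steady genes, and 12 and 17 CpG dinucleotides. The GC box GGGCGG, searched on both strands as were all motifs, was in 62.5% of both sets and in 32.9% of all 27025 promoters. The ETS motif CCGGAAG was in 5.21% of the members' windows, 17.0% of those of other steady genes and 7.05% of all. The core of the CRE, TGACGT, was in 3.13%, 11.5% and 6.56%, and the E-box CACGTG in 4.17%, 9.37% and 6.05%. TATAAA was in 5.21% of members, 5.40% of other steady genes and 13.0% of all, CCAAT in 31.2%, 38.6% and 34.5%, TGACTCA (AP-1) in 3.13%, 2.45% and 4.43%, and AGGTCA in 13.5%, 9.52% and 13.8%. The letters are matches only and do not show that a factor binds.

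Windows of 3 members are shown, one each for the signals, receptors and stress genes described below, since they carry the GC boxes common in the group and end before the annotated gene. Each is the 250 bases before the start on the gene's own strand, 5′ to 3′, from RefSeq, GRCm38.p6, with the motifs found in capitals. Vegfa lies at chr17:46032378-46032627 on the minus strand, with CCAAT and 2 GC boxes. Unc5a lies at chr13:54949161-54949410 on the plus strand, with 5 GC boxes read on the opposite strand, of which 1 pair overlaps. Hspa1b lies at chr17:34959239-34959488 on the minus strand, with CCAAT on the opposite strand, 3 GC boxes and GAANNTTC, a form of the heat shock element, which was added to the motifs after the members were seen.
Vegfa: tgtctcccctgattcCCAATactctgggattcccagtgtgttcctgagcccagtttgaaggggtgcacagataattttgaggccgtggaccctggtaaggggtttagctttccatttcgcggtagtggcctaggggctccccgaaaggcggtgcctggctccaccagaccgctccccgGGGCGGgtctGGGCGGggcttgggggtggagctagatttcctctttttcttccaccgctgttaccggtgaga
Unc5a: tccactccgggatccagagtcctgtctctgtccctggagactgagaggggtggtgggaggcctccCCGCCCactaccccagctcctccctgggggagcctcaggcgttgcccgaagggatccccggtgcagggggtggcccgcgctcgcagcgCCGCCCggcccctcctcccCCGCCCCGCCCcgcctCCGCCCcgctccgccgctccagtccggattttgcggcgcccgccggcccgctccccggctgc
Hspa1b: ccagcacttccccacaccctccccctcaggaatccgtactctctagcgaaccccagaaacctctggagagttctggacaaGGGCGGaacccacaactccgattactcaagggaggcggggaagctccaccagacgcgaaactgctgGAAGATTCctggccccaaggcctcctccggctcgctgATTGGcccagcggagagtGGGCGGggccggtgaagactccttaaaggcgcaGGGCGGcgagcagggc
GAANNTTC was in 6.25% of the members' windows, 4.82% of those of other steady genes and 6.78% of all. TTCCNGGAA, the STAT element, and ACGTG, the core of the hypoxia response element, were also added later. The former was in 1.04%, 0.952% and 0.914% of these sets, the latter in 16.7%, 23.9% and 16.6%, and neither was found in the 3 windows shown.

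Among secreted signals, Igfbp5 and Vegfa fell furthest. Igfbp5 (chr1:72857932-72874884, minus strand) encodes a secreted protein that binds insulin-like growth factors. It stood at 16.2, 23.9 and 22.8 at 0 h, 9.20, 17.6 and 15.9 at 24 h, and 4.28, 4.28 and 3.91 CPM at 48 h. The 48 h libraries were close together and below each of the others, and at 24 h replicate 1 was lowest. Its mean of 21 ± 4.18 at 0 h, 14.2 ± 4.42 at 24 h and 4.16 ± 0.213 CPM at 48 h (SD, n = 3) gave a 48 h/24 h ratio of 0.293, or 0.293 after adjustment for GC content, and left 0.198 of the 0 h level. Vegfa (chr17:46016993-46032369, minus strand), the endothelial growth factor induced by low oxygen, held 53.7, 55.7 and 53.2 at 0 h, 67.7, 79.0 and 92.0 at 24 h, and 30.7, 33.4 and 29.5 CPM at 48 h. All libraries at 24 h lay above those at 0 h, and those at 48 h lay below both. Its mean ratio was 1.47 for 24 h/0 h and 0.392 for 48 h/24 h (0.409 adjusted). Nmb (neuromedin B), Stc1 (stanniocalcin) and Sema4g (a semaphorin) had 48 h/24 h ratios of 0.566, 0.542 and 0.591.

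Receptors and the regulators that act on them had the lowest median ratio of the 10 roles the members were sorted into, at 0.431 over 8 genes. That ratio is unadjusted, and this role also had the highest median GC content of the 10, at 61.1%. The rule selected on the same ratio, so nothing is read from the ranking. The roles were assigned to 89 genes from general knowledge after the members were known, and are used only to order the account. Socs3 (chr11:117966079-117970047, minus strand) encodes the feedback inhibitor of JAK-STAT signalling. It stood at 68.8, 98.0 and 114 at 0 h, 139.9, 117 and 124 at 24 h, and 50.7, 55.0 and 42.6 CPM at 48 h. The 0 h libraries reached up to the lower end of those at 24 h without overlap, and the 48 h libraries were lowest. The mean was 93.6 ± 22.8 at 0 h, 127 ± 11.8 at 24 h and 49.4 ± 6.25 CPM at 48 h (SD, n = 3), with a 48 h/24 h ratio of 0.390 (0.455 adjusted). Dtx1 (chr5:120680202-120711927, minus strand), the Deltex ubiquitin ligase of the Notch pathway, held 11.2, 14.4 and 16.6 at 0 h, 17.8, 17.6 and 18.3 at 24 h, and 6.80, 6.76 and 6.00 CPM at 48 h. Its 24 h libraries were nearly equal, and its ratio was 0.365 (0.425 adjusted). Unc5a (chr13:54949411-55006018, plus strand), a receptor for netrin, held 25.0, 35.0 and 35.6 at 0 h, 44.2, 36.2 and 29.7 at 24 h, and 14.9, 14.7 and 14.1 CPM at 48 h. Its 0 h and 24 h libraries overlapped, whereas the 48 h values were within 1 CPM of each other, and the ratio was 0.397 (0.467 adjusted). Vldlr, the receptor for very low density lipoprotein and for reelin, was one of few members of low GC content (43.8%). It averaged 19.6 ± 3.97 at 0 h, 14.6 ± 2.17 at 24 h and 6.17 ± 0.438 CPM at 48 h (SD, n = 3), a ratio of 0.422 that the adjustment brought to 0.375. Vipr1 (a receptor for vasoactive intestinal peptide), Lrfn1 (a synaptic adhesion protein), Adgrb1 (an adhesion G protein-coupled receptor) and Dact2 (a Dishevelled-binding protein) had ratios of 0.439, 0.452, 0.518 and 0.558.

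**Figure D4:**
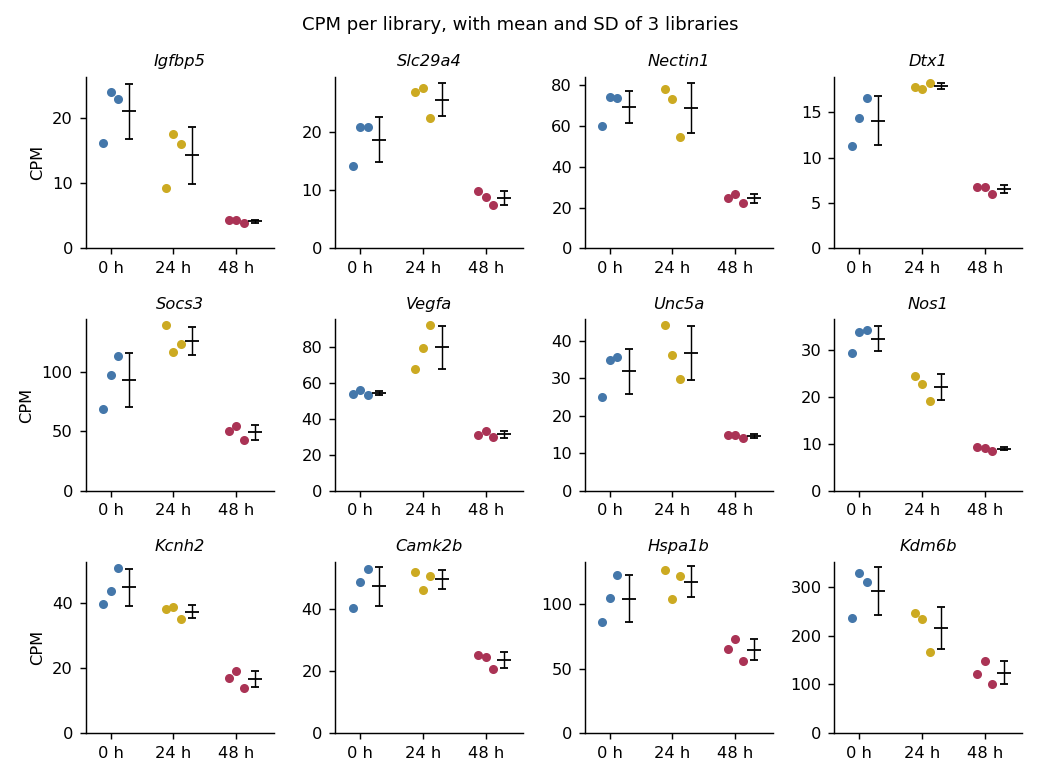
CPM in each library (points) of 12 members at 0 h, 24 h and 48 h, with the mean and SD of 3 libraries beside the points. Each vertical axis starts at 0. In each of the 12 panels the 48 h points lie under all 24 h points, for example 42.6 to 55.0 CPM against 117 to 140 CPM for Socs3.

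Adhesion and matrix genes numbered 10, with a median ratio of 0.532. Nectin1 (chr9:43743984-43807461, plus strand), an immunoglobulin-like protein of cell contacts, held 60.1, 74.0 and 73.6 at 0 h, 77.9, 73.2 and 54.7 at 24 h, and 24.5, 26.5 and 22.4 CPM at 48 h. Values at 0 h and 24 h overlapped, and the 48 h libraries lay well below. Its mean was 69.2 ± 7.92 at 0 h, 68.6 ± 12.3 at 24 h and 24.5 ± 2.06 CPM at 48 h (SD, n = 3), a 48 h/24 h ratio of 0.357 (0.408 adjusted). Matn4, a matrilin of the extracellular matrix, had means of 23.4 ± 4.76 at 0 h, 16.8 ± 0.451 at 24 h and 6.38 ± 0.774 CPM at 48 h (SD, n = 3). Its 48 h/24 h ratio was 0.380, or -1.40 on the log2 scale and -1.34 when adjusted. The surface proteins Itga9 (integrin α9) and Icam1 (a ligand of leukocyte integrins) were already called lower at 24 h than at 0 h, with 24 h/0 h ratios of 0.690 and 0.701. Their 48 h/24 h ratios were 0.55 and 0.574, and 18.2% of the windows of Icam1 were shared with an overlapping gene. Cadherin genes Cdh5 and Cdh23 had ratios of 0.578 and 0.583. Cdh5 defines endothelial cells, and at 3.87 ± 1.16 at 0 h, 5.28 ± 1.41 at 24 h and 3.05 ± 0.399 CPM at 48 h (SD, n = 3) it was near the lower limit of the rule. Over the list of 44 adhesion and matrix genes, 14 of 42 tested were called lower at 48 h than at 24 h and 9 higher. Over all genes tested, 12.7% were called lower and 8.61% higher, and these shares are the background of each list count at 48 h against 24 h below.

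Ion channels formed another set of 10, with a median ratio of 0.529. Kcnh2 (chr5:24319589-24351604, minus strand), the channel of the rapid delayed rectifier potassium current of the heart, held 39.8, 43.9 and 51.0 at 0 h, 38.3, 38.8 and 35.2 at 24 h, and 17.0, 19.1 and 13.9 CPM at 48 h. The 24 h libraries were below those at 0 h without overlap, and those at 48 h were far lower, at a 48 h/24 h ratio of 0.444 (0.516 adjusted). Kcnh6, Kcna7 and Kcnk6, further potassium channels, and Kcnab3, an auxiliary subunit, had ratios of 0.560, 0.511, 0.582 and 0.576. Cacna1i (a T-type calcium channel), Htr3a (a serotonin-gated channel), Grik4 (a kainate receptor subunit) and Catsperg1 (a subunit of the sperm calcium channel) had ratios of 0.457, 0.447, 0.598 and 0.547. Catsperg1 shared 64.4% of its windows, chiefly with Catsperg2. Of the 24 ion channel and solute carrier genes tested in the list, 9 were called lower and 1 higher at 48 h.

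Transcripts better known from neurons were also present. Nos1 (chr5:117781032-117958840, plus strand), the neuronal nitric oxide synthase, held 29.4, 33.8 and 34.4 at 0 h, 24.6, 22.8 and 19.1 at 24 h, and 9.32, 9.19 and 8.54 CPM at 48 h. It fell in both steps without overlap between times, with ratios of 0.682 and 0.406 (0.410 adjusted), the first of which is at the edge of the rule. Camk2b (chr11:5969644-6066362, minus strand), a subunit of calcium/calmodulin-dependent kinase II, held 40.2, 48.7 and 52.7 at 0 h, 51.8, 46.0 and 50.8 at 24 h, and 25.2, 24.6 and 20.7 CPM at 48 h. Values at 0 h and 24 h overlapped, and the ratio of 48 h to 24 h was 0.474 (0.515 adjusted). Hap1, the huntingtin-associated protein of vesicle transport, averaged 149 ± 23.0 at 0 h, 118 ± 5.70 at 24 h and 64.0 ± 5.40 CPM at 48 h (SD, n = 3), a ratio of 0.542 (0.632 adjusted). In the neuronal and synaptic list, 8 of 32 genes tested were called lower at 48 h and 4 higher.

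The 12 genes of transcription and chromatin had a median ratio of 0.538. Kdm6b (chr11:69398508-69413675, minus strand), a demethylase of histone H3 lysine 27, took the most reads of all members. It stood at 237, 329 and 311 at 0 h, 248, 235 and 168 at 24 h, and 121, 148 and 101 CPM at 48 h. Replicate 3 was lowest at 24 h and at 48 h, and the highest 48 h library was under the lowest 24 h library by a small margin. The mean was 292 ± 48.8 at 0 h, 217 ± 42.9 at 24 h and 124 ± 23.7 CPM at 48 h (SD, n = 3), with ratios of 0.741 and 0.571 (0.644 adjusted). Of the 48 enzymes that modify histone H3 in the list, 5 were called lower at 48 h and 5 higher (12.7% and 8.61% of all genes tested), and Kdm6b alone was a member. Smarcd2, a subunit of the SWI/SNF remodelling complex, held 106, 123 and 151 at 0 h, 164, 158 and 154 at 24 h, and 88.7, 105 and 87.5 CPM at 48 h. Its 48 h libraries lay below those at 0 h as well, and its ratio was 0.592 (0.681 adjusted). Ssbp4, a single-stranded DNA-binding protein, had means of 85.0 ± 33.3 at 0 h, 92.2 ± 1.73 at 24 h and 37.5 ± 4.79 CPM at 48 h (SD, n = 3), with replicate 1 far below the others at 0 h, and a ratio of 0.407 (0.471 adjusted). Junb (an AP-1 subunit), E2f2 (a cell cycle factor), Vdr (the vitamin D receptor), Epop (a Polycomb partner) and Zfpm1 (a partner of GATA factors) had ratios of 0.503, 0.502, 0.471, 0.497 and 0.506.

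**Figure D5:**
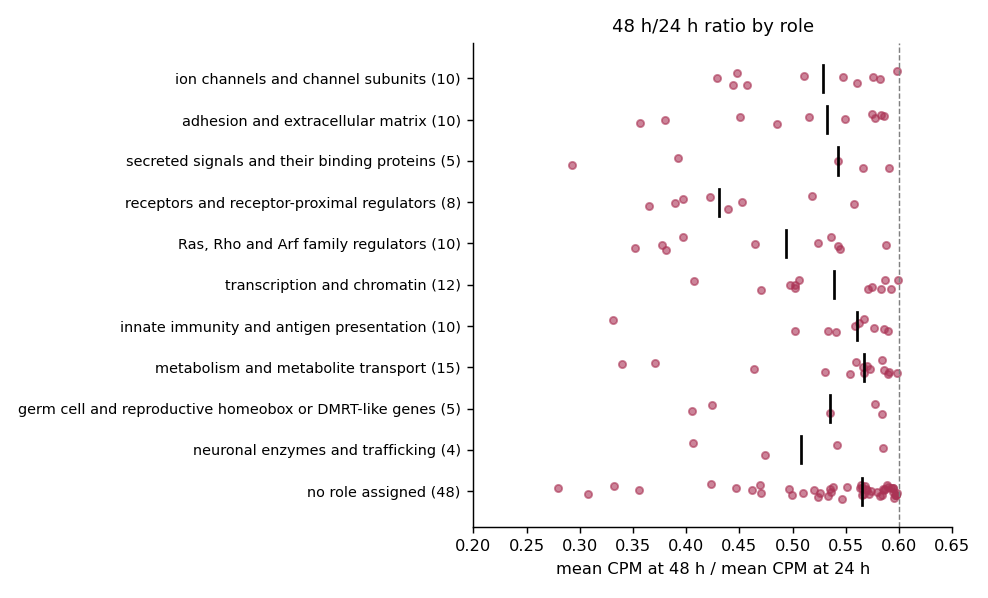
Ratio of mean CPM at 48 h to mean CPM at 24 h (horizontal axis) for each member (points), by role, with the number of genes in brackets and the median as a bar. The dashed line is the limit of 0.6. Receptors and receptor-proximal regulators have the lowest median, 0.431, and metabolism the highest of the named roles, 0.567. Ratios are not adjusted for GC content, and the rule selected on them.

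Regulators of small GTPases gave a median ratio of 0.494 over 10 genes. They included the Ras GTPase-activating proteins Rasal3 and Rasal1 (0.352 and 0.543), the exchange factors Mcf2l, Arhgef10l and Arhgef16 (0.464, 0.524 and 0.588) and the Arf exchange factor Psd4 (0.536). Their levels were low, from 5.39 CPM for Ripor3 to 42.7 CPM for Arhgef10l at 24 h.

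Immune genes numbered 10, with a median ratio of 0.560. Dhx58 (chr11:100694884-100704271, minus strand), a sensor of cytosolic double-stranded RNA also named LGP2, held 11.6, 10.5 and 10.9 at 0 h, 11.2, 12.8 and 12.5 at 24 h, and 5.14, 3.96 and 3.00 CPM at 48 h. The 0 h and 24 h libraries overlapped, and the ratio was 0.331 (0.362 adjusted). Zc3hav1 (an antiviral zinc finger protein), Trim56, Nlrx1 (a mitochondrial NOD-like protein) and Pycard (the inflammasome adaptor) had ratios of 0.576, 0.567, 0.586 and 0.533. Tap2, a subunit of the peptide transporter of antigen presentation, was spread at 48 h, where its CPM were 4.50, 2.66 and 1.52, against 5.43, 5.83 and 4.28 at 24 h. Of the 29 genes of the interferon list, 2 were steady genes, and none was a member. Of the 29, 18 were called lower at 48 h than at 24 h and 1 higher. At 24 h against 0 h, 20 were called higher, beside 11.4% of all genes tested, and 1 lower, with the 24 h libraries shared between both comparisons. Oas1a had mean CPM of 10.2, 31.2 and 11.1 at 0 h, 24 h and 48 h, one of the largest falls on the list. A 48 h/24 h ratio of at most 0.6 was reached by 9 of the 29. Others stayed up, such as Isg15 with 1.42, 11.5 and 10.2 CPM and Ifit1 with 0.927, 5.55 and 7.26 CPM.

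Metabolic enzymes and transporters formed the largest role, with 15 genes and a median ratio of 0.567. Slc29a4 (chr5:142692512-142722490, plus strand), a transporter of monoamines and nucleosides, held 14.2, 20.8 and 20.9 at 0 h, 26.7, 27.5 and 22.3 at 24 h, and 9.80, 8.78 and 7.37 CPM at 48 h. Its 24 h libraries lay above those at 0 h without overlap and its 48 h libraries below, at a ratio of 0.339 (0.399 adjusted). Slc25a1, the mitochondrial citrate carrier, had means of 99.2 ± 30.4 at 0 h, 85.1 ± 2.41 at 24 h and 49.7 ± 2.11 CPM at 48 h (SD, n = 3), and Slc1a5, a glutamine transporter, 48.9 ± 6.16 at 0 h, 41.5 ± 2.35 at 24 h and 23.7 ± 2.12 CPM at 48 h (SD, n = 3). Their ratios were 0.584 and 0.570, or 0.678 and 0.655 when adjusted. Glycogen and glucose 6-phosphate handling was represented by Gys1 (glycogen synthase), Epm2a (laforin) and Slc37a4 (the glucose 6-phosphate translocase), with ratios of 0.530, 0.591 and 0.573. The folate enzymes Mthfd1l and Aldh1l1 had ratios of 0.567 and 0.464, and the triglyceride lipase Pnpla2 0.598.

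Vegfa and Ndrg1, a growth regulator induced by low oxygen, belong to the list of hypoxia and glycolysis genes. Ndrg1 held 47.7, 54.0 and 53.5 at 0 h, 54.1, 59.6 and 58.6 at 24 h, and 32.4, 35.9 and 32.7 CPM at 48 h. Its 24 h libraries lay just above those at 0 h, and its ratio of 48 h to 24 h was 0.586 (0.607 adjusted). In this list 30 of 34 genes tested were called lower at 48 h than at 24 h and none higher, and the median log2 fold change was -0.62, against -0.0045 over all genes tested. At 24 h against 0 h, which shares the 24 h libraries, 25 genes of the list were called lower, beside 14.2% of all genes tested, and 1 higher. Vegfa and Ndrg1 were not called in that comparison. Slc2a1, the glucose transporter, had mean CPM of 417, 139 and 67.2, Pfkp, a phosphofructokinase, 385, 52.0 and 23.3, and Ldha, lactate dehydrogenase A, 441, 186 and 116. Egln1, an oxygen sensor, held 135, 155 and 99.4 CPM, and its 48 h/24 h ratio of 0.641 missed the limit of the rule.

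Hspa1b, the inducible heat shock protein 70, was a further stress gene. It stood at 85.9, 105 and 123 at 0 h, 127, 104 and 122 at 24 h, and 65.4, 72.8 and 56.1 CPM at 48 h. The 0 h and 24 h libraries overlapped and those at 48 h were lowest, at a ratio of 0.551 (0.641 adjusted). Among 17 heat shock and chaperone genes, 5 were called lower at 48 h and 1 higher. In the list of the ATF4 response, which holds Vldlr, 15 of 35 genes tested were called lower and 1, Asns, higher. Atf4 itself, Atf5 and Ddit3 were not called, with 48 h/24 h ratios of 0.856, 0.903 and 1.15. At 24 h against 0 h, which shares the 24 h libraries, 9 genes of the list were called lower and 5 higher. Over all genes tested, 14.2% were called lower and 11.4% higher in that comparison.

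Genes known from germ cells were few. Ybx2 (chr11:69935796-69941605), an RNA-binding protein of germ cells, held 26.8, 35.1 and 33.3 at 0 h, 41.6, 36.7 and 30.0 at 24 h, and 21.6, 21.9 and 19 CPM at 48 h and had a ratio of 0.577 (0.672 adjusted). Its 24 h and 0 h libraries overlapped, while those at 48 h were below both. The X-linked Dmrtc1c1 and Dmrtc1c2, Mageb1 and Rhox2h had ratios of 0.405, 0.425, 0.584 and 0.535, and each shared over 70% of its windows with other genes. No member was on the lists of undifferentiated spermatogonia, differentiating spermatogonia, meiotic prophase, piRNA pathway or pluripotency genes. Only 4, 7, 15, 12 and 7 genes of these lists were among the 8990 steady genes, of which 137 were members, so nothing is read from this count of 0. In the first of these lists, 12 of 31 genes tested were called lower at 48 h than at 24 h and 4 higher, in the second 7 of 18 and 2, and in the meiotic list 2 of 31 and 4, beside 12.7% lower and 8.61% higher over all genes tested.

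Of the other named members, Ptp4a3 (a phosphatase of the PRL family), Tsen34 (a subunit of the tRNA splicing endonuclease) and Nol4l had high read numbers at 24 h, with means of 129, 119 and 82.7 CPM. Their 48 h/24 h ratios were 0.596, 0.597 and 0.534. On the log2 scale these are -0.745, -0.744 and -0.906, and the adjusted values were smaller falls of -0.582, -0.556 and -0.826. Per kilobase of exon, the level at 24 h was 46.7 for Tsen34, 44.1 for Smarcd2, 43.9 for Socs3 and 31.2 for Kdm6b in FPKM, which is CPM divided by the exonic length in kilobases. Kbtbd11 and Fam163b were among the strongest falls, with ratios of 0.332 and 0.308 (0.351 and 0.357 adjusted). For Kbtbd11, 24.6% of the windows were shared with an overlapping transcript.

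At the limits of the rule, members and non-members differed little. At the lower limit of level, Cmtr1 and Pkp3 were in with 24 h means of 5.05 and 5.12 CPM, and Cntnap2 and Gucy2c out with 4.98 and 4.97 CPM. For the 24 h/0 h ratio, Igfbp5 and Nos1 (0.679 and 0.682) were in and Dkkl1 and Gpr3 (0.666 and 0.657) out at the lower end, and Kifc3 and Aldh1l1 (1.49 and 1.47) in and Neil1 and Parp14 (1.51 and 1.54) out at the upper end. For the 48 h/24 h ratio, Ikzf4 and Grik4 (0.599 and 0.598) were in and Chst15 and Fibcd1 (0.6004 and 0.602) out.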

How the data were processed

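RNA-seq was performed on 9 libraries of EGFP-SSC, 3 at each of 0 h, 24 h and 48 h, grouped by their titles. The authors deposited raw counts of reads per gene, without normalization, and their processing notes name fastp, HISAT2, featureCounts and the build GRCm38. The library strand setting is not given in the sources used here, so overlapping genes are named beside their values. Symbols, positions and transcripts came from GENCODE M21 (GRCm38), which held 45229 of 46078 identifiers. The 137 members and all lists and roles were chosen with earlier results of these data known.

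CPM were computed from library totals and averaged per time. Differential expression was tested two-sided in edgeR 4.0.16 under R 4.3.3, by quasi-likelihood (filterByExpr, TMM, 6 libraries per comparison), with Benjamini-Hochberg adjustment over all genes tested and a threshold of 0.05. Replicates are labelled as biological. Between replicates, the chi-square per degree of freedom was 7.13 to 81.4, above sampling noise. Adjusted CPM removed, in each library, natural splines of log2 CPM (0.5 CPM added) on transcript GC content (5 degrees of freedom) and length (4). This scale was added after the data were seen. FPKM used the union of exons as length. Shared sequence was measured with BLAST 2.17.0. The edgeR comparison of 48 h with 24 h was also run on simulated counts, with the same dispersion for all genes and no trend along GC content. That setting is simpler than these libraries, and no result is drawn from it.

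Genes described are the 15 lowest ratios among members of at least 10 CPM at 24 h without overlap between 24 h and 48 h libraries, the 10 highest in CPM, members on a list, and those at the limits of the rule. Other genes given as examples of a role were chosen after their values were seen. Alternatives were DESeq2 1.42.0, other normalizations and filters, GC and length offsets, 1 fit of all libraries, a replicate block, other limits of the rule and leaving out each library. 1 gene that this rule names is not reported here.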

Additional observations from a re-analysis of the deposited data

How the results depend on the processing

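The number of genes the rule takes, 137, became 83 with at least 10 CPM at 24 h, 377 with filterByExpr in place of the minimum, 43 with a 48 h/24 h ratio of at most 0.5, 82 with a narrower range of the 24 h/0 h ratio around 1, and 88 on GC-adjusted CPM, and ran from 122 to 174 without single libraries. Members called at 24 h against 0 h (11, beside 25.5% of all genes tested) became 32 (35.6%) with GC and length offsets. They were 18 (31.5%) in 1 fit of all 9 libraries, 6 (27.3%) with library size alone and 7 (13.4%) without an expression filter. They ran from 1 to 26 without single libraries, beside 14.4% to 33.4% of all genes tested. Libraries of the same replicate number had correlations of -0.28 to 0.196 between times, after the mean of each time was subtracted. This measure cannot show whether such libraries were handled together. With the replicate number as a block, 4 members were called (17.1% of all genes tested), or 29 (30.3%) with GC and length offsets too. Genes called lower at 48 h than at 24 h (2226) became 758 in 1 fit of all libraries and ran from 1097 to 2262 without single libraries, being 1097 without replicate 1 of 48 h, 1466 without its replicate 3 and 1360 without replicate 1 of 24 h. Without single libraries, calls over all genes at 24 h against 0 h (4494) ran from 2607 to 6023, and lower calls at 48 h against 0 h (3292) from 2154 to 3884. With GC and length offsets they were 6257 and 4452, and with these offsets and the replicate block 5334 and 3968. The left-out ratio, 0.577 on average, ran from 0.539 to 0.635. The causes were not tested. Members called lower at 48 h than at 24 h ran from 106 to 137, beside 4.15% to 12.6% of all genes tested in the alternatives. The rule used these libraries, so this count follows from the choice. Of 300 alternative values of the 30 named genes, 0 changed direction and 9 moved by more than the spread between replicates. All 9 were on GC-adjusted CPM, among the 30 values on that scale, and each was a smaller fall. At low counts, ratios of single members are least certain, and 54 members lay under 10 CPM at 24 h.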
